A study of Homo sapiens with 13 samples.

Results

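The 9 genes described here encode enzymes that make or use glutamine, glutamate, aspartate, asparagine and serine: GLUL, GLUD1, GOT1, GOT2, ASNS, PHGDH, PSAT1, PSPH and SHMT2. They were chosen by name, and every array probe carrying one of these names was taken, which gave 9 probes, 1 for each gene, among 25940 names on the array. RNA was measured on 13 one-colour Agilent arrays from parental CCRF-CEM cells (CEM PA), an established line from human T-cell acute lymphoblastic leukemia, and from a derivative resistant to FK866 (CEM RES). FK866 inhibits NAMPT, the enzyme that salvages nicotinamide for NAD+ synthesis. Mock-treated cells received DMSO for 48 h (3 arrays of CEM PA, 4 of CEM RES), and FK866-treated cells received 5 nM FK866 for 48 h (2 arrays of CEM PA, 4 of CEM RES). All groups grew in medium with 2 mM L-glutamine. CEM RES was a population selected under rising FK866 and resistant to 100 nM, and the Methods of the study state that it was kept under the drug, so its mock arrays are not from cells that had never met FK866. The labels call the arrays of a group biological replicates but do not describe separate cultures, so p values measure the spread between these arrays.

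Glutamine is an abundant amino acid of culture media and carries nitrogen into nucleotides, hexosamines, asparagine and NAD+. Glutamate, to which glutamine is broken down, is converted to 2-oxoglutarate by GLUD1 or the transaminases, and GLUL rebuilds glutamine from glutamate. GOT1 in the cytosol and GOT2 in mitochondria exchange amino groups between aspartate and glutamate and move reducing equivalents across the mitochondrial membrane as parts of the malate-aspartate shuttle. ASNS uses the amide of glutamine to make asparagine. PHGDH, PSAT1 and PSPH build serine from a glycolytic intermediate, with PHGDH using NAD+ and PSAT1 using glutamate, and SHMT2 passes serine carbon to the folate pool in mitochondria. Leukemic lymphoblasts often have little ASNS, which is why asparaginase is used to treat them.

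The probes are 60 bases long, and their positions are those of the array design on hg19. The GLUL probe lies at chr1:182352737-182352796 on the minus strand and the GLUD1 probe at chr10:88811026-88811085, also minus. GOT1 is probed at chr10:101157225-101157284 and GOT2 at chr16:58741037-58741096, both on the minus strand, and ASNS at chr7:97481461-97481520, again minus. For serine synthesis the positions are chr1:120285529-120285588 (plus) for PHGDH, chr9:80944778-80944837 (plus) for PSAT1 and chr7:56078799-56078858 (minus) for PSPH, while SHMT2 is probed at chr12:57628345-57628404 (plus). Exons and untranslated regions were not assigned, because no annotation of this build was used here. The first 30 of the 60 bases follow for the 6 probes whose signal differed between mock-treated CEM RES and CEM PA, since every difference given below is one of hybridisation to these letters.
GLUL: acggggcaccaaatttgagacaaatagtcg
GLUD1: ttcagaaggtggcatggtcctcaagtgagt
GOT1: taccaccaaagtagttctctgtcatgtgtg
GOT2: ctaaccatgtagacttattgcggcctggtt
PSAT1: taccattctttccataggtagaagagaaag
PSPH: gtcaattaaacacctttactcttaggaata
None of the 9 probes shared a run of 16 or more bases with a probe of another name on the array. GLUD1 has a near-identical intronless copy, GLUD2, and cross-hybridisation of their transcripts was not tested.

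The amino acid response, in which ATF4 and related factors turn on amino acid genes, acts through a promoter element called CARE. Its letters TGATGNAA were searched on both strands from 250 bases before to 50 bases after the gene starts in RefSeq promoters (GRCh38.p14), together with the E-box CACGTG that MYC binds. The table held 9 promoters of 7 of the genes, all but PSPH and SHMT2. A CARE match was present for 2 of these genes, against 3.62% of 35116 promoters, and an E-box for 0, against 7.26%. The units differ, since the first counts are by gene, and GLUL and ASNS had 2 promoters each, while the shares are by promoter. Both matches are shown because ASNS is the textbook CARE gene and GOT1 is a gene that differed between the lines, with the match in capitals on the strand of the gene.
ASNS, chr7:97872458-97872487, minus strand: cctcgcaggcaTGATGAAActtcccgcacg
GOT1, chr10:99430804-99430833, minus strand: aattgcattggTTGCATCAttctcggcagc
The ASNS match starts at position -68 relative to the gene start and reads on the strand of the gene. In GOT1 the match starts at position -198 and lies on the opposite strand. A match describes these letters and not a bound site.

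Between 26457 and 33239 of 43118 spots per array were well above background. Mock-treated CEM RES replicate 1 stood apart with 773 spots marked as outliers, against 195 to 344 on the other arrays, and had the lowest median correlation across probes with its own group (0.978). No member spot was marked as an outlier or saturated, and 8 of the 9 probes were well above background on all 13 arrays, GLUL being the exception. The T-lineage genes CD3E, CD5, CD7, LCK, PTPRC, TAL1 and NOTCH1 were well above background on all 13 arrays, in keeping with the label. Of genes for other lineages, EPCAM and COL1A1 were not well above background on any array and COL1A2 was on 3, while CD79A, CD14, KRT8 and KRT18 were on 13, MS4A1 on 11 and CSF1R on 7. Between the mock groups CD3E was higher in CEM RES (log2 fold change 1.12) and CD5 was lower (-1.96). The part of these differences in the results below was not tested. CEM PA arrays lay on 4 slides scanned in sessions 1 and 2, and all CEM RES arrays on 2 slides scanned in session 3.

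The first question was whether the resistant cells carried other levels of these transcripts than the parental cells without added drug. In mock-treated CEM RES, GLUD1, GOT1, GOT2, PSAT1 and PSPH were higher than in mock-treated CEM PA, by 1.37-fold (GOT2) to 1.79-fold (PSPH). GLUL was lower, by a size that depended on how background was handled. It was 3.91-fold with dim arrays held at a floor, and a log2 difference of -0.62 with another background correction (normexp). ASNS, PHGDH and SHMT2 did not pass the test. A probe was called at a Benjamini-Hochberg adjusted p under 0.05 over the 22751 probes tested with limma, and 6 of the 9 probes were called, against 47.6% of all probes tested. By direction, 5 were higher, against 24.9% of all probes, and 1 was lower, against 22.7%. The same 6 probes had mock groups that did not overlap, 5 of them higher (25.6% of all probes) and 1 lower (23.2%), against 48.8% of all probes in either direction. The double threshold of the study's methods, an unadjusted p under 0.05 with an absolute log2 fold change over 0.75, was passed by 5 of the 9, all of these but GOT2, against 35.6% of all probes. Differences between the lines were common over the whole array, and the counts alone do not set the 9 genes apart from it. The median log2 fold change of the 9 probes was 0.46, and that of all probes was 0.04. In RNA from whole cultures, fewer cells with a transcript and less of it per cell cannot be told apart.

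**Figure D1:**
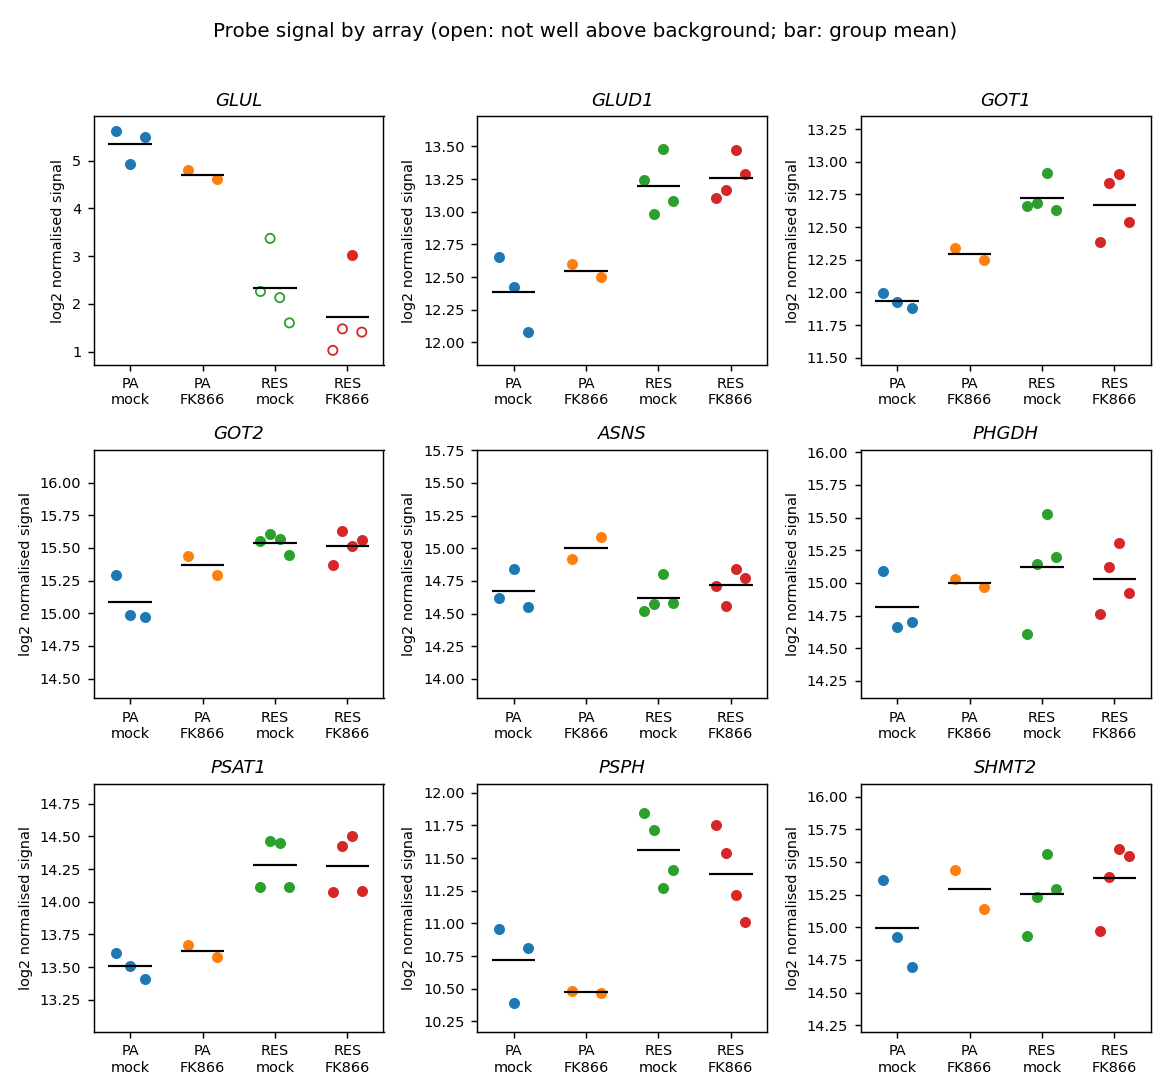
Log2 quantile-normalised signal of the 9 probes (vertical axes, of equal span except GLUL) in the 4 groups, with 1 point per array in replicate order, open where the spot was not well above background, and a bar at the group mean. GLUD1, GOT1, GOT2, PSAT1 and PSPH are higher on every CEM RES mock array than on any CEM PA mock array, and GLUL is lower.

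GLUL, glutamine synthetase, gave the largest difference of the 9 with the main processing, but not with normexp correction. Its log2 normalised signal was 5.63, 4.93 and 5.50 on the mock CEM PA arrays. On the mock CEM RES arrays it was 2.26, 3.37, 2.13 and 1.60. The CEM PA arrays were all well above background and the CEM RES arrays were not, so the groups do not overlap and the CEM RES level is known only as a limit. The measured difference was -3.01 (SE 0.46, adjusted p = 0.000277, limma). GLUL was kept for testing only through its signal in CEM PA, and this p and SE rest on dim spots in CEM RES. Among probes well above background on all 13 arrays, which leaves GLUL out, 5 of the 8 other members were called, against 50.5% of those probes. The value of 3.91-fold holds each dim array at the higher of its own signal and the lowest signal well above background there. It is not a firm lower limit, since the spot on mock CEM RES replicate 2, at 3.37, was itself not well above background. The GLUL signal was low in CEM PA too, with 32.7, 33.2 and 34.2 intensity units before normalisation on the mock arrays. Its fold therefore depends on how background is handled: with normexp correction, which adds a constant to every signal, the difference was -0.62 and still passed the test (adjusted p = 0.000194, limma).

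GLUD1, the mitochondrial glutamate dehydrogenase that feeds glutamate carbon to the citric acid cycle, went the other way. Its log2 signal was 12.65, 12.43 and 12.08 on the mock CEM PA arrays. The mock CEM RES arrays gave 13.24, 12.99, 13.48 and 13.08. Every CEM RES array was thus above every CEM PA array, and the difference of 0.81 (SE 0.17, adjusted p = 0.00227, limma) corresponds to 1.76-fold.

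Both aspartate transaminases were higher in CEM RES. For the cytosolic enzyme GOT1 the mock CEM PA arrays gave 12.00, 11.93 and 11.88 and the mock CEM RES arrays 12.66, 12.68, 12.91 and 12.63. These CEM PA arrays had the smallest spread of any member in mock CEM PA (SD 0.06, n = 3), and the difference was 0.79 (SE 0.15, adjusted p = 0.00121, limma), or 1.72-fold. GOT2, its mitochondrial partner, had log2 signals of 15.29, 14.99 and 14.97 in mock CEM PA against 15.55, 15.60, 15.56 and 15.44 in mock CEM RES. The groups were close but separate, at a difference of 0.46 (SE 0.13, adjusted p = 0.0127, limma). Without mock CEM PA replicate 2 the GOT2 difference was 0.41 and no longer passed (adjusted p = 0.0516, limma).

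Of the 3 serine synthesis genes, PSAT1 and PSPH were called and PHGDH was not. PHGDH, the first and NAD+-dependent step, gave 15.09, 14.66 and 14.70 in mock CEM PA and 14.61, 15.14, 15.53 and 15.20 in mock CEM RES. Its groups overlapped, since CEM RES replicate 1 was below all CEM PA arrays, and the difference of 0.30 had a 95% interval from -0.16 to 0.76 (adjusted p = 0.265, limma). PSAT1, the transaminase of the pathway, was at 13.61, 13.51 and 13.41 in mock CEM PA. In mock CEM RES it was at 14.11, 14.47, 14.45 and 14.11, which is 1.71-fold higher (log2 0.78, SE 0.16, adjusted p = 0.00181, limma). PSPH, the phosphatase of the last step, had 10.96, 10.39 and 10.82 against 11.85, 11.71, 11.27 and 11.41. All CEM RES arrays were above all CEM PA arrays, and the difference of 0.84 (SE 0.21, adjusted p = 0.00646, limma) was the largest rise of the 9 with the main processing. This rank did not hold with normexp correction (PSPH 0.75, PSAT1 0.80) or with scaling by 75th percentiles (PSPH 0.79, GLUD1 and PSAT1 0.82). SHMT2 overlapped between the mock groups, at 15.36, 14.93 and 14.70 for CEM PA and 14.94, 15.23, 15.56 and 15.30 for CEM RES. Its difference was 0.26 (95% interval -0.20 to 0.72, adjusted p = 0.334, limma).

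ASNS, asparagine synthetase, was the member with the smallest difference between the mock lines. The signals were 14.62, 14.84 and 14.55 on the CEM PA arrays and 14.52, 14.57, 14.81 and 14.58 on the CEM RES arrays. They overlapped, and the difference of -0.05 had a 95% interval from -0.35 to 0.24 (adjusted p = 0.779, limma). That interval leaves out a rise of the size of PSAT1 or GLUD1.

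Without mock CEM RES replicate 1, the array that stood apart, the 6 calls between the mock lines held. No scan session held both lines. With session as a random block, which CEM PA allows because it spans sessions 1 and 2, 6 probes were called between the mock lines and 4 between the FK866 groups, but a fixed difference between session 3 and the others cannot be told apart from the line. Scaling the arrays by their 75th percentiles instead of by quantiles moved the median of all probes between the mock lines from 0.04 to 0.16. On that scale PHGDH stood at 0.48, SHMT2 at 0.46 and GOT2 at 0.66, with the last of these called, and ASNS changed sign to 0.07 (0.05 with normexp correction).

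The same comparison was made between the lines after 48 h in FK866. GLUD1, PSAT1 and PSPH were again higher in CEM RES, by 1.64-fold, 1.56-fold and 1.87-fold. GLUL was lower, by 3.28-fold with dim arrays held at the same floor and by a log2 difference of -0.47 with normexp correction. In all 4 of the 9 probes were called, against 36% of all probes tested, 3 of them higher (18% of all probes) and 1 lower (18%). The groups did not overlap for 6 probes, against 57.8% of all probes, with CEM RES higher for 4 (30.1%) and lower for 2 (27.7%). The double threshold was passed by 2, PSPH and GLUL, against 30.7% of all probes. The median log2 fold change of the 9 probes was 0.15 here, and that of all probes was 0.06.

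GLUD1 was at 12.60 and 12.50 in FK866-treated CEM PA and at 13.11, 13.17, 13.47 and 13.29 in FK866-treated CEM RES, a difference of 0.71 (SE 0.20, adjusted p = 0.0143, limma). PSAT1 was at 13.67 and 13.58 against 14.08, 14.42, 14.50 and 14.08, a difference of 0.65 (SE 0.18, adjusted p = 0.0154, limma). PSPH, at 10.48 and 10.47 against 11.76, 11.54, 11.22 and 11.01, differed by 0.91 (SE 0.24, adjusted p = 0.0120, limma). For each of the 3 genes the lowest CEM RES array was above the highest CEM PA array. GLUL was well above background on both CEM PA arrays (4.81 and 4.61) and on 1 of 4 CEM RES arrays (1.03, 1.48, 3.02 and 1.41), the exception being replicate 3. The measured GLUL difference was -2.98 (SE 0.53, adjusted p = 0.00115, limma), and -0.47 with normexp correction. Here too the p and SE of GLUL rest on dim spots in CEM RES.

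GOT1 and GOT2 were not called between the FK866 groups. GOT1 was at 12.34 and 12.25 in CEM PA against 12.38, 12.84, 12.91 and 12.54 in CEM RES, without overlap, and differed by 0.37 (95% interval 0.00 to 0.75, adjusted p = 0.109, limma). Leaving out CEM RES FK866 replicate 1, the lowest of these, gave 0.47 (adjusted p = 0.0491, limma). GOT2 was at 15.44 and 15.30 against 15.37, 15.63, 15.51 and 15.56, with overlap, and its difference was 0.15 (95% interval -0.17 to 0.47). ASNS was at 14.92 and 15.08 in CEM PA against 14.71, 14.56, 14.84 and 14.77 in CEM RES. Its groups did not overlap, with CEM RES the lower, and the difference of -0.28 had a 95% interval from -0.62 to 0.05 (adjusted p = 0.176, limma). PHGDH (0.03, 95% interval -0.49 to 0.55) and SHMT2 (0.09, 95% interval -0.44 to 0.61, and -0.04 with normexp correction) overlapped. With only 2 CEM PA arrays in FK866, the calls of GLUD1, PSAT1 and PSPH did not hold when either array was removed. Their differences were then 0.76, 0.69 and 0.91 without replicate 1, and 0.66, 0.60 and 0.90 without replicate 2. The GLUL call stayed, but it rests on dim CEM RES spots and is not firmer for that.

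**Figure D2:**
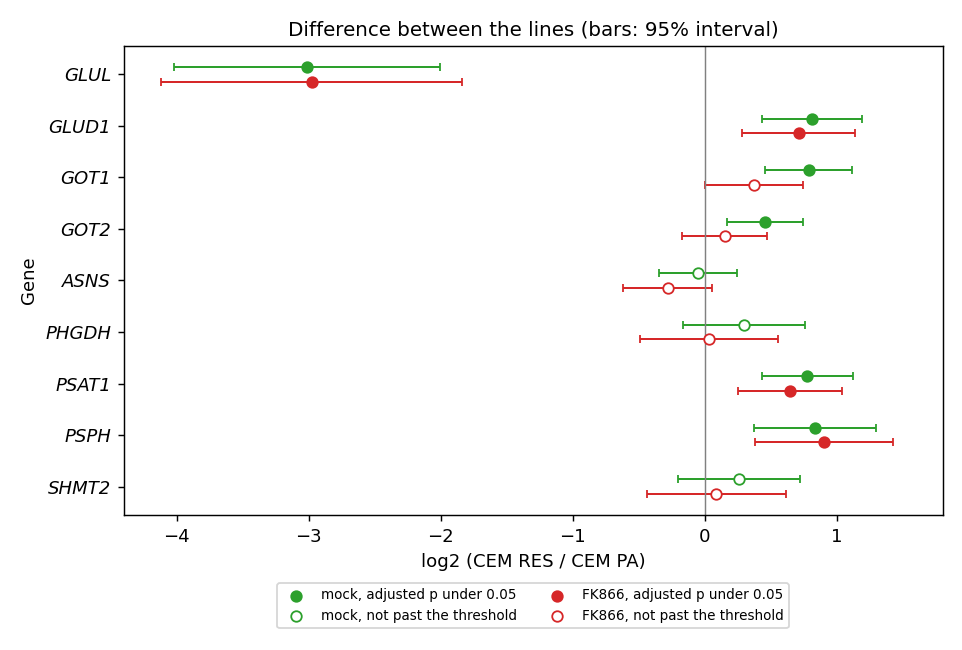
Log2 ratio of CEM RES to CEM PA (horizontal axis) for the 9 genes in mock and in FK866 arrays, with 95% intervals from limma, filled where the adjusted p was under 0.05. GLUL stands near -3 in both, as measured from dim CEM RES signals, while GLUD1, PSAT1 and PSPH lie between 0.65 and 0.91 in both.

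The next question was whether FK866 moved these transcripts within a line. Each line's FK866 comparison uses the mock arrays that also enter the comparison of the lines, so the values below are given side by side and not as independent results. In CEM PA 0 of the 9 probes were called by limma, against 1.53% of all probes tested, and 0 had an unadjusted p under 0.05, against 14.4% of all probes. The groups did not overlap for GOT1, GOT2 and ASNS, higher with FK866, and for GLUL, lower, against 34.8% of all probes. The median log2 difference of the 9 was 0.18 and that of all probes 0.00. The former was 0.30 without mock CEM PA replicate 1 or with 75th percentile scaling, and 0.12 without mock CEM PA replicate 3.

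ASNS and GOT1 came nearest to the threshold in CEM PA. ASNS went from 14.62, 14.84 and 14.55 on the mock arrays to 14.92 and 15.08 with FK866, a difference of 0.33 (95% interval -0.02 to 0.68, adjusted p = 0.388, limma). GOT1 went from 12.00, 11.93 and 11.88 to 12.34 and 12.25, a difference of 0.36 (95% interval -0.03 to 0.75, adjusted p = 0.401, limma). Both intervals reach from just under 0 to a rise of 0.68 or more. Values for the others were 0.29 for SHMT2, 0.28 for GOT2, 0.18 for PHGDH, 0.16 for GLUD1, 0.12 for PSAT1, -0.25 for PSPH and -0.64 for GLUL, whose interval ran from -1.85 to 0.56. Within scan session 1, which held 1 array of each kind, ASNS differed by 0.30 and GOT1 by 0.35, and within session 2 by 0.39 and 0.34. PHGDH and GLUD1 had opposite signs in these sessions, at -0.06 and -0.05 in session 1 and at 0.29 and 0.25 in session 2.

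In CEM RES 0 of the 9 probes were called by limma, against 0% of all probes tested, and 0 had an unadjusted p under 0.05, against 5.15% of all probes. GLUL was dim in both groups and gets no fold. For the 8 other genes the log2 difference with FK866 ran from -0.18 (PSPH) to 0.12 (SHMT2), and their 95% intervals all lay between -0.61 and 0.55. No group pair was free of overlap, against 2.91% of all probes. Within the slides, which each held 2 mock and 2 FK866 arrays, PHGDH differed by -0.32 on one and 0.15 on the other, SHMT2 by -0.14 and 0.38, and PSPH by 0.15 and -0.50. ASNS was the steadiest of the 8 here, at 0.08 and 0.12.

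The difference between the FK866 responses of the lines was tested in the same model. It was called for 0 of the 9 probes by limma, against 0.413% of all probes, and 0 had an unadjusted p under 0.05, against 12.1%. For the 8 genes other than GLUL the response in CEM RES minus that in CEM PA lay between -0.41 (GOT1, 95% interval -0.91 to 0.08) and 0.07 (PSPH, 95% interval -0.63 to 0.77). All 8 of these intervals included 0.

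**Figure D3:**
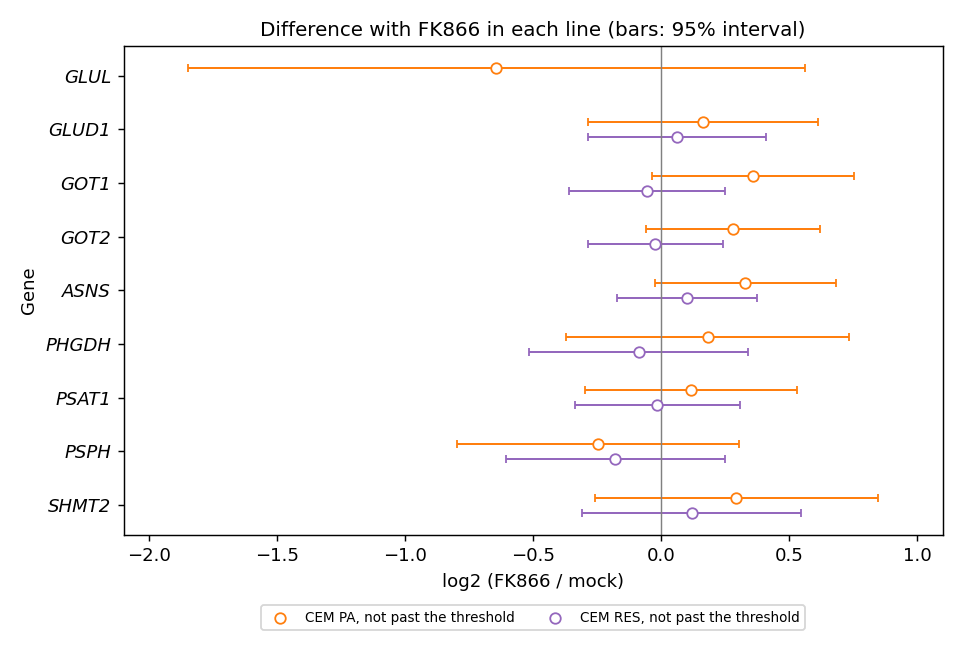
Log2 ratio of FK866 to mock (horizontal axis) for the 9 genes in CEM PA and CEM RES, with 95% intervals from limma. GLUL in CEM RES is left out because it was dim in both groups, and every interval shown includes 0.

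By group mean, GLUD1, PSAT1, GOT1, GOT2, PSPH and PHGDH had both CEM RES groups above both CEM PA groups. For GLUD1 and PSAT1 the order from low to high split into the CEM PA pair and the CEM RES pair, and the neighbours within each pair were not separated by the test. GOT1 ran from mock CEM PA (11.94) through FK866 CEM PA (12.29) and FK866 CEM RES (12.67) to mock CEM RES (12.72), and no neighbours in this order were separated by the test. ASNS alone had its highest mean in FK866-treated CEM PA (15.00), with the other groups from 14.62 to 14.72. PHGDH and SHMT2 varied about as much within a group as between groups, with SDs of up to 0.38 and 0.34 and group means that spanned 0.30 and 0.38.

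Arrays of a group often deviated in the same direction for most members. Mock CEM PA replicate 1 was above its group mean for 8 of the 9 probes, as was FK866 CEM PA replicate 1, and both lay on slide 1. CEM RES replicate 3 was above for 7 of the 9 in mock and in FK866, whereas CEM RES FK866 replicate 1 was above for 1. The pair of members with the most similar profile over the 13 arrays was GOT1 and PSAT1, with a root mean square difference of 0.12 after centring each probe on its mean. PHGDH and SHMT2 came next (0.16), and GLUL was farthest from all others (1.59 or more).

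The genes closest to each member by the same measure over the 13 arrays, among 17564 names, are given as a description. GOT1 was closest to SARS, the seryl-tRNA synthetase (0.06), then SMPD2 (0.09) and SLC27A5 (0.10). ASNS was closest to GMNN (0.08), RNF219 (0.08) and GPN1 (0.10), and PSAT1 to NUS1, MRPL3 and KIAA0100 (each 0.09). GLUD1 lay nearest to COQ2, a ubiquinone synthesis enzyme (0.10), a transcript named only by its identifier, and ARHGEF3 (0.12). GOT2 was nearest to ARHGAP21 (0.07), CLTA (0.08) and ECHS1 (0.09). The nearest genes to PHGDH were C1orf43 (0.12), IDH3B (0.13) and WDR45 (0.14), and to SHMT2 they were PLRG1 (0.13), MRPL48 (0.13) and MOSPD1 (0.14). PSPH had ANP32B (0.15), MIS18A (0.17) and ITPRIPL1 (0.18). GLUL had no close match, with ATP10A at 0.56, PLXNB1 at 0.62 and ABCA2 at 0.63.

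The neighbouring pathways were taken from 7 lists of 68 further genes, of which 62 had a tested probe, each gene by its probe with the highest mean signal. Between the mock lines 23 of the 62 were higher in CEM RES, against 24.9% of all probes, and 9 were lower, against 22.7%, with a median of 0.24. Between the FK866 groups 17 were higher and 9 lower, against 18% of all probes in each direction. These shares over all probes are the background for each list below, and with 5 to 13 tested genes a list the counts are descriptions. FK866 against mock gave 0 calls in either line.

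One-carbon metabolism, which receives the serine carbon that SHMT2 releases, had the most calls. Of 13 tested genes 8 were higher in mock CEM RES (24.9% of all probes) and 2 were lower (22.7%). The folate enzymes MTHFD2L (2.50), ALDH1L1 (1.83), ALDH1L2 (1.69) and MTHFD1 (1.07) led the rises, and MTHFD1L followed at 0.81. In mock CEM PA, MTHFD2L and ALDH1L2 were each well above background on 2 of 3 arrays, and in FK866-treated CEM PA MTHFD2L was on 1 of 2, so these differences rest partly on dim spots. AMT of the glycine cleavage system was lower (-1.16, second probe -2.13). With FK866, 7 were higher and 0 lower, MTHFD2L at 2.74, ALDH1L1 at 1.78, MTHFD1L at 0.91, GCSH at 0.88, MTHFD1 at 0.81 and SHMT1, the cytosolic partner of SHMT2, at 0.76 (other probes -0.08 to 0.90).

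Glutamine entry and transamination had 3 of 7 tested genes higher (24.9% of all probes) and 0 lower (22.7%) between the mock lines. GLUD2 was higher at 0.77, but between the FK866 groups it was at 0.31 and did not pass. BCAT2, the mitochondrial transaminase of branched-chain amino acids, was at 0.68 in mock and 0.86 with FK866.

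The malate-aspartate shuttle, to which GOT1 and GOT2 belong, had 3 of 5 other genes higher in mock CEM RES (24.9% of all probes) and 0 lower (22.7%). The aspartate-glutamate carrier SLC25A13 was higher by 1.49 in mock and by 1.76 with FK866. Mitochondrial malate dehydrogenase MDH2 was higher by 1.01 and 0.84. The third was the oxoglutarate carrier SLC25A11 at 0.46, whereas cytosolic MDH1 stood at -0.06 and the carrier SLC25A12 at -0.23, neither past the threshold.

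Of other users of serine, 3 of 9 were lower in mock CEM RES, near the 22.7% of all probes, and 0 were higher, against 24.9%. CTH, which cleaves cystathionine to cysteine, was at -1.25 in mock and at -1.32 with FK866. SERINC1, linked to serine incorporation into lipids, stood at -0.53 in mock and -0.80 with FK866, and PTDSS1, a phosphatidylserine synthase, at -0.56 and -0.46.

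Enzymes that take the amide of glutamine had 2 of 7 higher and 1 lower in mock CEM RES, against 24.9% and 22.7% of all probes. PPAT, the first committed step of purine synthesis, was at 0.94 (second probe 1.12), and GMPS at 0.42. NADSYN1, the glutamine-dependent NAD+ synthetase, was lower at -0.72 in mock and stood at -0.09 with FK866, without passing there. GFPT1 of the hexosamine pathway was lower with FK866 at -0.76, while its second probe was at 0.04. The proline and arginine branches had 3 of 8 higher and 1 lower, against the same shares, with PYCRL at 0.92 and PYCR1 at 0.83 (second probe 0.11), both of proline synthesis, and the argininosuccinate lyase ASL at -0.92. With FK866 ASL was at -0.77 and the argininosuccinate synthase ASS1 at -0.88.

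Of regulators and targets of the amino acid response, 4 of 13 were higher in mock CEM RES and 2 lower, near the 24.9% and 22.7% of all probes. ATF4 itself stood at 0.09 and did not pass. MYC (1.93), the glutathione-degrading CHAC1 (1.68, second probe 1.87) and DDIT3, which encodes CHOP (0.80), were higher, and CEBPB was lower (-1.05). With FK866 the calls were 3 higher and 3 lower, among them CHAC1 at 1.55, VLDLR at 0.99, NUPR1 at -0.82 and CEBPB at -0.80.

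**Figure D4:**
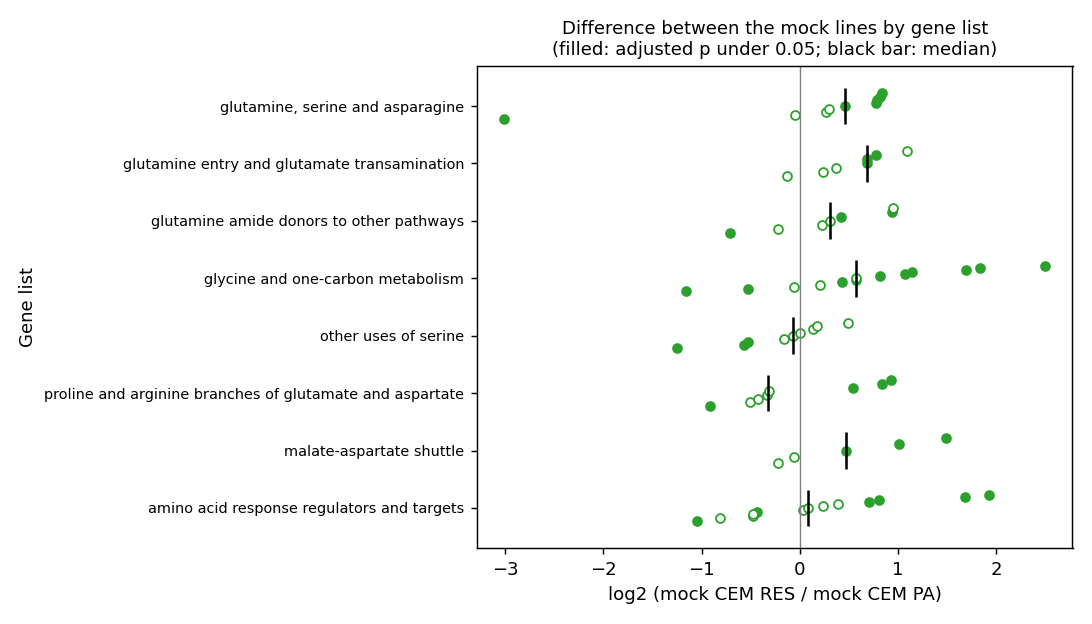
Log2 ratio of mock CEM RES to mock CEM PA (horizontal axis) for the 9 genes (top row) and for the tested genes of 7 neighbouring lists, 1 point per gene, filled where the adjusted p was under 0.05, with a bar at each median. One-carbon genes reach 2.50 (MTHFD2L, dim on 1 of 3 mock CEM PA arrays), and GLUL stands at -3.01, measured from dim CEM RES signals.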

How the data were processed

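The authors deposited for each of 13 arrays the spot intensity written by Agilent Feature Extraction (version 10.7.7.1 per the labels), background-corrected within the array, and a table of log2 values, which the authors had quantile normalised per the Methods of the study. Here control spots were removed, outlier spots set to missing, intensities put on the log2 scale, quantile normalised and averaged per probe. A probe was kept where some group had it well above background on all its arrays (22751 of 34127, all 9 members). One linear model over all 4 groups was fitted in limma (version 3.58.1 under R 4.3.3, two-sided moderated tests, Benjamini-Hochberg over all kept probes, called at 0.05). The methods' own double threshold (unadjusted p under 0.05 and absolute log2 fold change over 0.75), other scalings, filters, blocks and left-out arrays were alternatives. Deviations from the group mean correlated between same-numbered mock and FK866 arrays, by 0.200 to 0.474 in the 4 CEM RES pairs. The main model did not use this pairing, so its errors, intervals and p values are unpaired. A replicate block, which takes the numbers as pairs, was one of the alternatives. The 2 CEM PA pairs gave 0.460 and 0.353, but the deviations of only 2 FK866 arrays mirror each other, so these are not separate values. FK866 CEM PA replicate 2 also gave 0.259 with mock replicate 3, scanned in the same session. Pairing and batch therefore cannot be told apart in CEM PA. The genes, lists and tests were chosen with earlier results of these data known. Of the lists, genes called with an absolute log2 fold change over 0.75 were named, up to 5 per list, direction and comparison, along with others named after their values were seen, and some genes the rule covers are not reported here. Python 3.11.15 with numpy 2.4.6, pandas 2.3.3 and matplotlib 3.10.9 read the files and drew the figures. Precision is limited by the number of arrays and by how far a signal lies over background. The fit was tested on simulated data with independent noise, which held no batch or pairing and so says nothing about either.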

Additional observations from a re-analysis of the deposited data

How the results depend on the processing

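Of 1066 recomputed log2 differences (9 genes, 5 comparisons), 1058 kept their side of the threshold and, where called, their direction, 7 lost a call, 1 gained one and 0 called values reversed. In 35 cases a difference that was not called under either setting changed sign. The 6 calls between the mock lines ranged from 5 to 6 when each array was left out in turn, and the 4 calls between the FK866 groups ranged from 1 to 5. The low end came from leaving out either CEM PA FK866 array, after which the lone array left was taken to have the spread of the other groups. Under the methods' double threshold 2 probes (PSPH and GLUL) were called between the FK866 groups. FK866 against mock stayed at 0 calls in both lines, as did the difference in response, under all settings run. The filter requiring signal on all 13 arrays removed GLUL and left 5 and 3 calls between the lines. With the replicate block the calls were 6 and 4 between the lines and 0 elsewhere, so it changed no call of the 9 genes, although over all probes it raised the calls for FK866 in CEM PA from 348 to 1218 and for the difference in response from 94 to 486. Those 348 and 94 calls over all probes were also 580 and 186 with normexp correction, 191 and 56 without the filter, 90 and 23 with one probe per gene, and ranged from 32 to 384 and from 10 to 140 with each array left out. The 8186 calls between the FK866 groups ranged from 4189 to 8695 with each array left out. Fitting only the groups compared gave 3 for FK866 in CEM PA and has no counterpart for the difference in response. No array held more than 1 spot for a member, so GLUL rests on a single dim spot per array.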
